A study of Mus musculus with 4 samples.

Results

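The genes described here are 45 genes of DNA damage signalling and DNA repair, chosen by symbol from a fixed list, out of 24346 gene symbols in the deposited table. All 45 were found. RNA was measured in endothelial cells purified from mouse heart by flow cytometry and labelled as freshly isolated, in 2 libraries labelled ECp53KO and 2 labelled Ctrl. The ECp53KO label is not expanded and is read here, from the series title, as a loss of p53 in endothelial cells. The Ctrl libraries are labelled wild type. All 4 libraries share the C57BL/6 background and the label "Young", with no age given. What drives the deletion of p53, which exons it removes and whether each library is 1 mouse is not stated in the labels. The libraries are named by their group and title number: ECp53KO_170, ECp53KO_172, Ctrl_178 and Ctrl_182.

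Cells mend DNA by several routes that share few proteins. Nucleotide excision repair cuts out bulky lesions such as those made by ultraviolet light, base excision repair replaces single damaged bases, and mismatch repair corrects copying errors. Breaks through both strands are joined end to end or are copied back from the sister chromatid by homologous recombination. The Fanconi proteins unhook links between the strands. The kinases ATM and ATR sense damage and signal through CHEK2 and CHEK1, and ATM and CHEK2 act on p53. As a transcription factor, p53 in turn is known to switch on some repair genes, and many genes of recombination and of the Fanconi route are made mainly in dividing cells.

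In these libraries the repair genes differed little between the genotypes. Of the 45 genes, 37 averaged 1 FPKM or more over the 4 libraries and were tested (FPKM, the authors' unit, counts fragments scaled by transcript length and by depth). Over all 11332 genes tested, 0.0882% were lower and 0.0265% higher in ECp53KO at an adjusted p under 0.05 (limma with Benjamini-Hochberg adjustment). None of the 37 repair genes was in either class, and the smallest limma adjusted p among them was 0.864. At an unadjusted p under 0.05, 0 of the 37 were lower and 1, Xpa, was higher, beside 2.82% lower and 1.97% higher over all tested genes. The 8 genes under 1 FPKM include the 2 with the largest ratios between the group means, Chek1 and Fancd2, both lower in ECp53KO.

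The log2 fold changes, ECp53KO minus Ctrl on the log2(FPKM + 1) scale, ran from -0.37 to 0.53 over the 37 tested genes. Their median was 0.07, beside 0.01 over all tested genes. A positive value was found for 23 and a negative value for 14, but 17 and 20 when each library was rescaled to a fixed total, which moved the median of all genes by -0.11. The groups did not overlap, with ECp53KO higher, in 11 of the 37 (29.7%, against 19.1% of all tested genes), and with ECp53KO lower in 6 (16.2%, against 16.8%). The filter is on the mean over the 4 libraries, so a gene of low level may pass it only through the group where it is higher. These counts do not speak for the genes below the filter. The standard error of a log2 fold change ran from 0.14 to 0.51 with a median of 0.19.

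**Figure D1:**
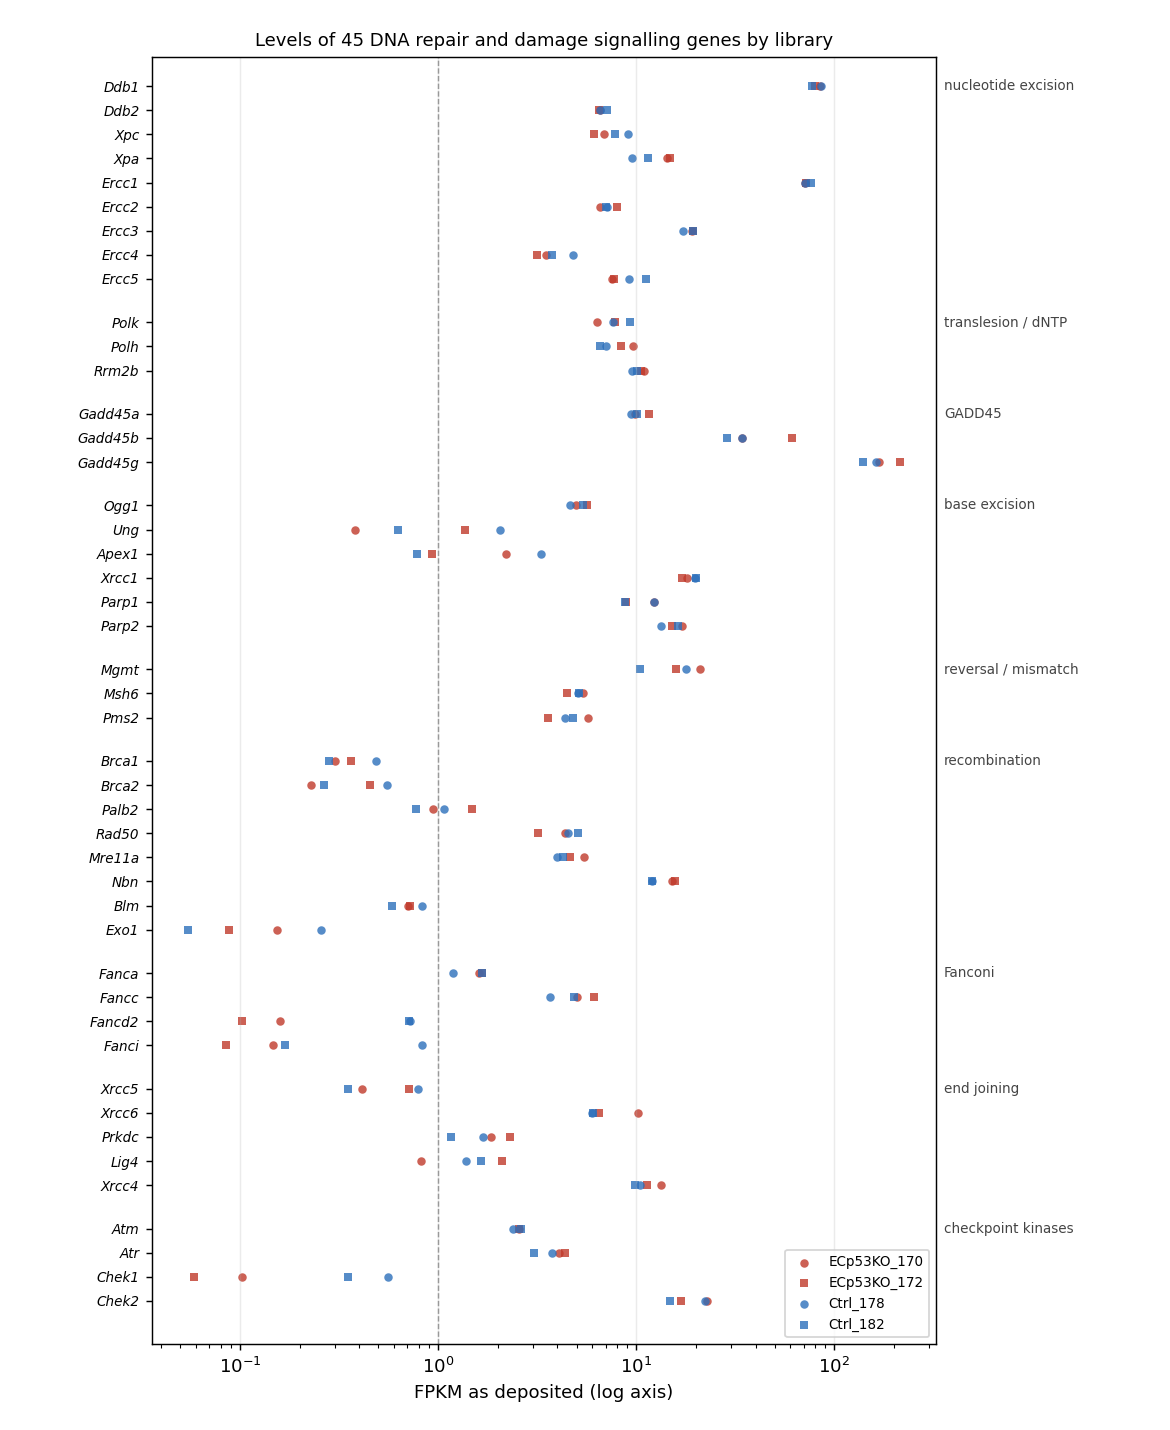
FPKM as deposited, on a log axis, of the 45 genes in each library, with ECp53KO in red and Ctrl in blue, circles for ECp53KO_170 and Ctrl_178 and squares for ECp53KO_172 and Ctrl_182. The dashed line marks 1 FPKM. Levels span from under 0.1 FPKM (lowest for Exo1 in Ctrl_182) to over 200 FPKM (Gadd45g in ECp53KO_172), and for most genes the 4 points lie close together.

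The targeted gene and the cells were checked against the labels. Trp53, which encodes p53, gave 4.41 and 2.45 FPKM in the ECp53KO libraries, against 52.1 and 28.8 FPKM in the controls (log2 fold change -3.20 ± 0.36, SE, limma adjusted p = 0.146, and 0.0123 with loci of small RNAs left out). Of 5 p53 targets used as a reference, all were lower without overlap between the groups, beside 16.8% of all tested genes. They were chosen with their earlier results known, so this count is no support for a difference. Among the 5 was Ccng1, a cyclin gene, at 14.7 and 15.9 against 30.0 and 25.2 FPKM. In the order named above, the 8 endothelial markers summed to 5838 and 5371 FPKM in ECp53KO and to 5273 and 5176 FPKM in Ctrl. Sums of the cardiomyocyte markers were 363 and 229 against 219 and 199 FPKM, and of the mural cell markers 175 and 143 against 92.3 and 111 FPKM. Erythroid markers summed to 410.5 and 89.3 against 60.3 and 33.5 FPKM, fibroblast markers to 30.0 and 26.2 against 26.9 and 28.7 FPKM, and leukocyte markers to 4.88 and 9.58 against 10.4 and 6.58 FPKM. Higher without overlap were 5 of 5 tested erythroid, 4 of 7 mural and 3 of 7 cardiomyocyte markers, beside 19.1% of all tested genes. The erythroid count is no support for a difference, since Hba-a2 and Hbb-bs reached the filter only through ECp53KO. Hbb-bs did so through ECp53KO_170 alone, at 66.9 and 0.022 against 0.014 and 0.0062 FPKM. The highest cardiomyocyte, mural and erythroid sums were in ECp53KO_170. The T cell gene Cd3e was listed at 0 in all 4 libraries. Their part in the repair gene values was not tested. In bulk RNA, fewer cells of a type and less RNA per cell cannot be told apart. Estimated depth was 9800000 to 11400000 fragments in 3 libraries and 22500000 in Ctrl_182.

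Of the 9 nucleotide excision repair genes, 4 were lower and 1 was higher in ECp53KO without overlap (16.8% and 19.1% of all tested genes), none past the test, and the median log2 fold change was -0.05. The damage sensors of this route are XPC, which finds distortions in the helix, and the DDB1 and DDB2 pair, which binds ultraviolet lesions. Ddb1 was abundant: the ECp53KO libraries gave 84.9 and 79.6 FPKM and the controls 85.2 and 77.2 FPKM, with overlap. Ddb2, a gene reported as a p53 target, stood at 6.56 and 6.50 against 6.59 and 7.09 FPKM. Its log2 fold change was -0.06, with a 95% interval of -0.47 to 0.36. Both ECp53KO values of Ddb2 were under both Ctrl values, by as little as 0.4% of the level in the closest pair. Xpc (chromosome 6, 91489305 to 91515888, GRCm38) stood at 6.84 and 6.11 against 9.10 and 7.81 FPKM, also without overlap. The difference was -0.34 ± 0.17 on the log2 scale (SE), with a 95% interval of -0.78 to 0.10.

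Downstream of the sensors, XPA checks the lesion, ERCC2 and ERCC3 are helicases of the transcription factor TFIIH, and the nucleases ERCC1-ERCC4 and ERCC5 cut the strand on either side. Xpa (chromosome 4, 46175220 to 46196344) was high in ECp53KO, where the libraries gave 14.3 and 14.8 FPKM, and lower in the controls, which gave 9.48 and 11.4 FPKM. Means with their SD were 14.6 ± 0.365 and 10.5 ± 1.38 FPKM (n = 2 each), and the log2 fold change was 0.45 ± 0.17 (SE, limma adjusted p = 0.864), with a 95% interval of 0.02 to 0.87. Its unadjusted limma p was no longer under 0.05 after rescaling to a fixed total (log2 fold change 0.35), with each library's trend in transcript length removed (0.32), with median ratio scaling (0.43), with Xist as a covariate (0.45) or without any 1 of the 4 libraries (0.32 to 0.57). Ercc5 (chromosome 1, 44146948 to 44181260) lay the other way, at 7.57 and 7.74 against 9.24 and 11.2 FPKM. Here the log2 fold change was -0.37 ± 0.17, with a 95% interval of -0.80 to 0.07. Ercc4, whose protein works as a pair with ERCC1, was at 3.49 and 3.15 against 4.79 and 3.76 FPKM, without overlap. Its partner Ercc1 was at 70.9 and 71.6 against 70.9 and 76.3 FPKM, with overlap. Ercc2 (6.55 and 8.0 against 7.15 and 7.0 FPKM) and Ercc3 (19.1 and 19.4 against 17.2 and 19.3 FPKM) also overlapped.

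**Figure D2:**
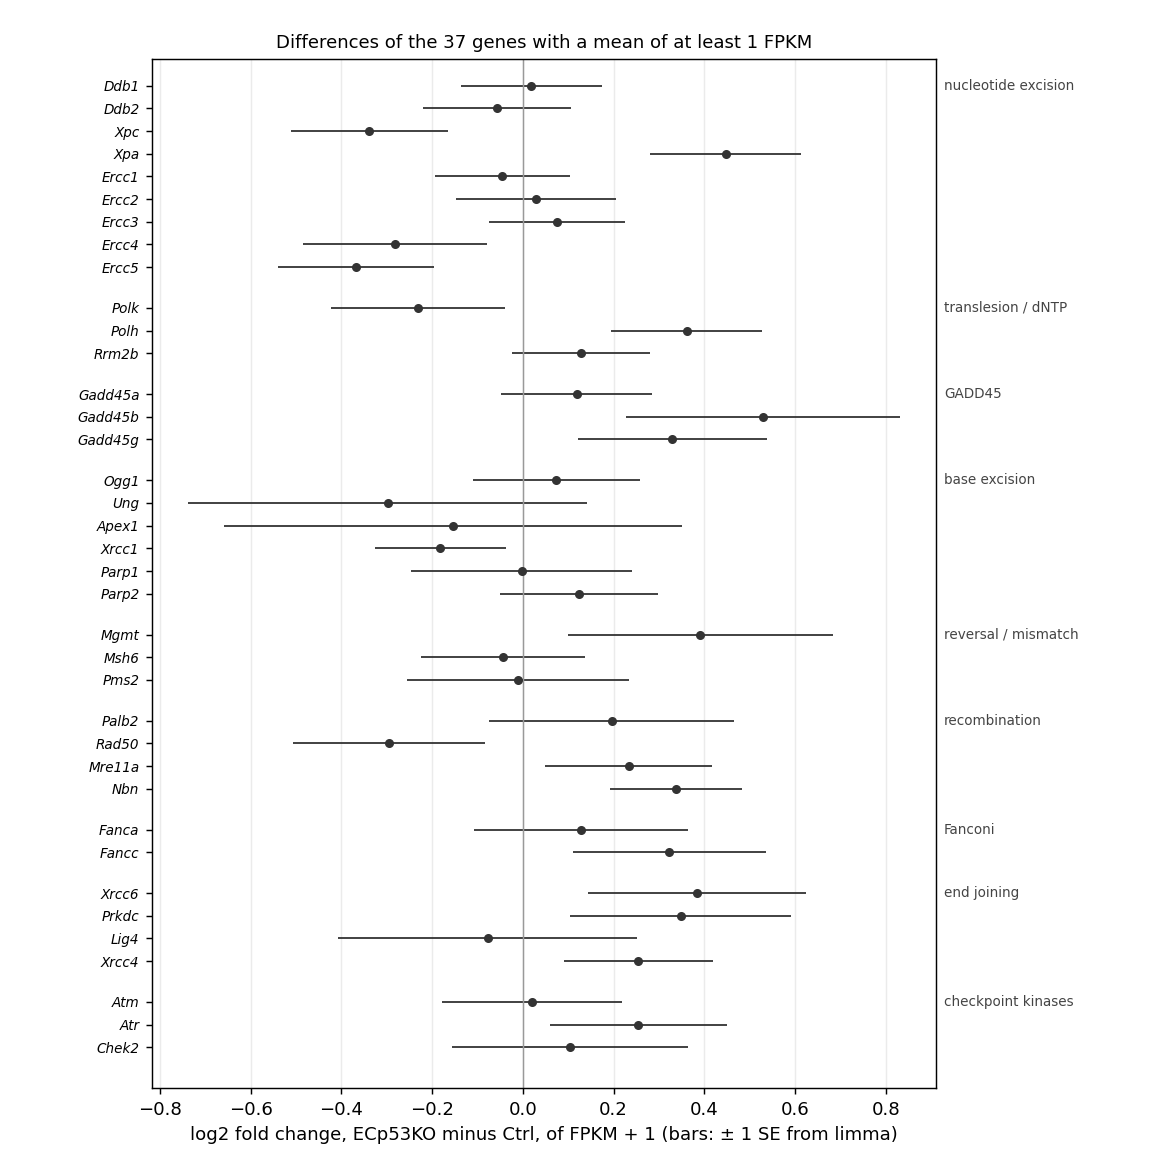
Log2 fold change of FPKM + 1, ECp53KO minus Ctrl, with 1 standard error on either side from limma, for the 37 genes that averaged 1 FPKM or more, by pathway. All but Gadd45b lie within 0.5 of 0 (97.3%, beside 90.4% of all tested genes), and Xpa, with the smallest p, is at 0.45.

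The genes that p53 is reported to switch on were read together because the cells differ in p53. There are 8 among the 45: Ddb2, Xpc, Ercc5, Polk, Polh, Rrm2b, Gadd45a and Fancc. Of these 8, 4 had a positive and 4 a negative log2 fold change, with a median of 0.03. Without overlap, 3 were lower (Ddb2, Xpc and Ercc5) and 3 higher (Polh, Rrm2b and Fancc) in ECp53KO, beside 16.8% and 19.1% of all tested genes. Of the lower ones, Ddb2 was apart by only the 0.4% given above. By limma 0 passed after adjustment and 0 had an unadjusted p under 0.05. In the same fit Trp53 and the 5 reference targets each had a negative log2 fold change and an unadjusted limma p under 0.05. Over all tested genes 2.82% did. Trp53, the targeted gene, was at -3.20, and the 5 targets ran from -2.28 (Phlda3) to -0.56 (Mdm2). That list was chosen with its earlier results known, so it is no support for a contrast with the 8 genes.

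Polk and Polh encode translesion polymerases, which copy past damaged bases. Polk gave 6.37 and 7.77 FPKM in ECp53KO against 7.63 and 9.32 FPKM, and the groups overlapped (log2 fold change -0.23 ± 0.19, SE, 95% interval -0.72 to 0.26). Polh stood at 9.59 and 8.42 against 7.03 and 6.53 FPKM, higher in both ECp53KO libraries (0.36 ± 0.17, 95% interval -0.06 to 0.79). The 2 polymerase genes thus had differences of opposite sign, neither past the test. Rrm2b, the small subunit of ribonucleotide reductase that supplies nucleotides outside S phase, was at 10.9 and 10.6 against 9.46 and 10.1 FPKM (0.13 ± 0.15, 95% interval -0.26 to 0.52). A fall of Rrm2b by more than 0.26 on this scale lies outside that interval. The interval holds only for the values as deposited, since rescaling to a fixed total moved the median of all genes by -0.11.

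The GADD45 proteins are small stress-induced proteins that bind PCNA and activate a kinase upstream of p38 and JNK. Gadd45a is the member best known as a p53 target. The ECp53KO libraries gave 9.81 and 11.6 FPKM and the controls 9.39 and 10.1 FPKM, so the groups overlapped. The difference was 0.12 ± 0.17 on the log2 scale (SE), with a 95% interval of -0.30 to 0.54, and it was -0.01 with the length trend removed. Gadd45g was the most abundant of all 45 genes, at 167 and 215 against 163 and 139 FPKM, higher in both ECp53KO libraries (0.33 ± 0.21, 95% interval -0.20 to 0.86). Gadd45b was at 34.1 and 61.1 against 34.2 and 28.7 FPKM (0.53 ± 0.30, 95% interval -0.24 to 1.30). Only ECp53KO_172 was high there, and ECp53KO_170 lay between the controls.

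Promoter sequences (RefSeq, GRCm38.p6, 250 bases before to 50 bases after the start site) of 36 of the 45 genes were searched on both strands. The p53 half-site is the block of bases that 1 pair of p53 molecules binds. It was found in 8.36% of all 32851 promoter windows and in 7.69% of the 39 windows of these 36 genes. Those matches lay in 3 of the 36 genes, Gadd45a, Polk and Fanca. An E2F heptamer (TTCCCGC or TTGGCGC or TTCGCGC or TTGCCGC), which S phase genes often carry, was in 9.57% of all windows. It was in 43.6% of the 39 windows, from 16 of the 36 genes. A hexamer (TTTGAA or TTCGAA) of the element known as CHR in genes of late cell cycle phases was in 19.2% of all windows. It was in 7.69% of the 39 windows, from 3 of the 36 genes. A match is a run of letters and not a shown binding site. The pair below is shown because both genes are reported p53 targets with different values here, Gadd45a with overlapping groups and Ercc5 lower in both ECp53KO libraries; capitals mark the matches. In Gadd45a it is a p53 half-site that begins at base -40 from the start site. In Ercc5 they are a CHR hexamer read on the other strand, at -141, and an E2F heptamer read on the other strand, at -69, and these do not overlap.
Gadd45a promoter, chr6:67037358-67037657, minus strand: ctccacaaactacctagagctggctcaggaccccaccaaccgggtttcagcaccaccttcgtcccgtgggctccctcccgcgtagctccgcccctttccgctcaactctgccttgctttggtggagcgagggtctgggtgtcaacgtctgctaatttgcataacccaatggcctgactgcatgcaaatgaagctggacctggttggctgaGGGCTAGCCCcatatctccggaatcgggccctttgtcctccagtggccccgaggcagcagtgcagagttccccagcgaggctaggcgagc
Ercc5 promoter, chr1:44147494-44147793, plus strand: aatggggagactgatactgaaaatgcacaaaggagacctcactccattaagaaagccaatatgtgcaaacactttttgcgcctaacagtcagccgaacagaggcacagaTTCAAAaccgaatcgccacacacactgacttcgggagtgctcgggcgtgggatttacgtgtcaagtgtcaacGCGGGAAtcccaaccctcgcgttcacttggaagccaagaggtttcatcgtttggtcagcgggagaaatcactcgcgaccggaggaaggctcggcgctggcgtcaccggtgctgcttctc

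Base excision repair genes showed no difference past the test. Its glycosylases, which remove the damaged base, were low. Ogg1, which removes oxidised guanine, stood at 4.98 and 5.66 against 4.62 and 5.39 FPKM. Ung, which removes uracil, was at 0.382 and 1.37 against 2.04 and 0.630 FPKM, and Apex1, the endonuclease of the next step, at 2.21 and 0.933 against 3.30 and 0.786 FPKM. These 2 genes varied more within each group than between the groups, on an estimated 9 to 48 fragments per library for each of them. The scaffold gene Xrcc1 was the most abundant base excision gene among the 45, at 18.0 and 17.0 against 19.8 and 20.1 FPKM, lower in both ECp53KO libraries (log2 fold change -0.18 ± 0.14, SE, 95% interval -0.55 to 0.18). Parp1 and Parp2 encode the polymerases that mark strand breaks with ADP-ribose. Parp1 stood at 12.2 and 8.83 against 12.3 and 8.78 FPKM, and Parp2 at 17.1 and 15.2 against 13.3 and 16.3 FPKM.

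The direct reversal and mismatch genes overlapped between the groups throughout. Mgmt, whose protein lifts alkyl groups off guanine, gave 20.9 and 15.8 FPKM in ECp53KO against 17.8 and 10.4 FPKM (log2 fold change 0.39 ± 0.29, SE, 95% interval -0.35 to 1.13). Msh6, a mismatch sensor, stood at 5.37 and 4.49 against 5.07 and 5.12 FPKM. Pms2, part of the nuclease that follows it, stood at 5.70 and 3.58 against 4.39 and 4.77 FPKM.

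Among the recombination genes, those of the break sensor were expressed in all libraries while those that act in S phase were mostly under 1 FPKM. MRE11, RAD50 and NBN form the complex that holds broken ends and activates ATM. Nbn, the most abundant of these 3, gave 15.2 and 15.7 FPKM in the ECp53KO libraries and 12.0 and 12.1 FPKM in the controls. Its log2 fold change was 0.34 ± 0.15 (SE, 95% interval -0.03 to 0.71), and both groups had small spreads (SD 0.306 and 0.0583 FPKM, n = 2 each). Mre11a was at 5.43 and 4.64 against 3.97 and 4.29 FPKM, also higher in both ECp53KO libraries. Rad50 was at 4.36 and 3.17 against 4.54 and 5.07 FPKM, lower in both. The genes of this one complex thus lay in different directions, and none passed the test.

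Brca1, Brca2 and Palb2 encode the proteins that load the recombinase, while Blm and Exo1 encode a helicase and a nuclease that trim the ends. Brca1 stood at 0.303 and 0.363 against 0.487 and 0.282 FPKM, and Brca2 at 0.227 and 0.453 against 0.553 and 0.265 FPKM. Blm stood at 0.704 and 0.724 against 0.830 and 0.582 FPKM, and Exo1 at 0.153 and 0.0882 against 0.256 and 0.0545 FPKM. In each of these 4 genes both ECp53KO values lay between the controls or overlapped them, and all 4 were under the 1 FPKM filter. Palb2, just over it, was at 0.938 and 1.48 against 1.07 and 0.772 FPKM (95% interval of the log2 fold change -0.49 to 0.88).

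Fanconi and checkpoint genes held the largest ratios, at very low levels. FANCD2 and FANCI form the clamp that is tagged with ubiquitin at blocked forks, and CHEK1 is the kinase through which ATR slows S phase and mitotic entry. Fancd2 (chromosome 6, 113531640 to 113597020) was low in the ECp53KO libraries, at 0.160 and 0.102 FPKM, and the controls gave 0.722 and 0.712 FPKM. Means with their SD were 0.131 ± 0.0409 and 0.717 ± 0.00704 FPKM (n = 2 each), a ratio of 5.47, on an estimated 10 and 6 fragments against 44 and 88. Chek1 (chromosome 9, 36708482 to 36726658) stood at 0.102 and 0.0586 against 0.558 and 0.349 FPKM, a ratio of 5.65 between the means, on an estimated 4 and 2 fragments against 23 and 30. Fanci stood at 0.147 and 0.0847 against 0.826 and 0.168 FPKM. It was lower in both ECp53KO libraries, but Ctrl_182 lay close to ECp53KO_170.

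These 3 genes were under the filter, so their tests come from a fit chosen after the levels were seen, over 14141 genes that averaged 0.1 FPKM or more and on the log2(FPKM + 0.1) scale. There the log2 fold change was -1.83 ± 0.50 for Fancd2 (SE), -1.60 ± 0.58 for Chek1 and -1.22 ± 0.78 for Fanci, each with a limma adjusted p of 0.848. Chek1 averaged 0.0803 FPKM in ECp53KO and 0.453 FPKM in Ctrl. Only the controls thus lift it over this filter, and its test is no support for a difference. Fancd2 and Chek1 had an unadjusted p under 0.05 with a negative value, as did 3.12% of all genes in that fit, and Fanci did not. For Fancd2 this held without each library in turn (log2 fold change -2.02 to -1.65). For Chek1 it did not hold without ECp53KO_172 (-1.43) or without Ctrl_178 (-1.33). For Fanci the log2 fold change was -0.33 without Ctrl_178 and -2.11 without Ctrl_182, so the control used sets its size. Fancd2 overlaps 2 other annotated genes and Fanci 3, and without strand reads from the overlap cannot be told apart. Many other members overlap annotated genes too, among them Ddb2, Xpc, Gadd45a, Fancc, Ung, Msh6 and Atr.

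Most markers of dividing cells were lower in ECp53KO as well. The 10 proliferation markers summed to 17.1 and 16.7 FPKM in ECp53KO against 59.8 and 38.2 FPKM, and all but Aurkb were lower without overlap, 8 of the 9 tested at an unadjusted limma p under 0.05. Over all tested genes, 16.8% were lower without overlap and 2.82% lower at that limma p. The part of these markers in the values of Fancd2 and Chek1 was not tested. Within the 8 repair genes known to follow the cell cycle, Fancd2, Fanci and Chek1 were lower without overlap, while Brca1, Brca2, Blm, Exo1 and Fanca overlapped. Of these 8 only Fanca was over the filter, and the share of all genes under it that were lower without overlap was not counted. Fanca, of the Fanconi core complex, stood at 1.61 and 1.66 against 1.19 and 1.66 FPKM. Fancc, of the same complex, was the most abundant of the 4 Fanconi genes among the 45, at 5.01 and 6.09 against 3.66 and 4.85 FPKM, higher in both ECp53KO libraries (log2 fold change 0.32 ± 0.21, SE, 95% interval -0.22 to 0.86).

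**Figure D3:**
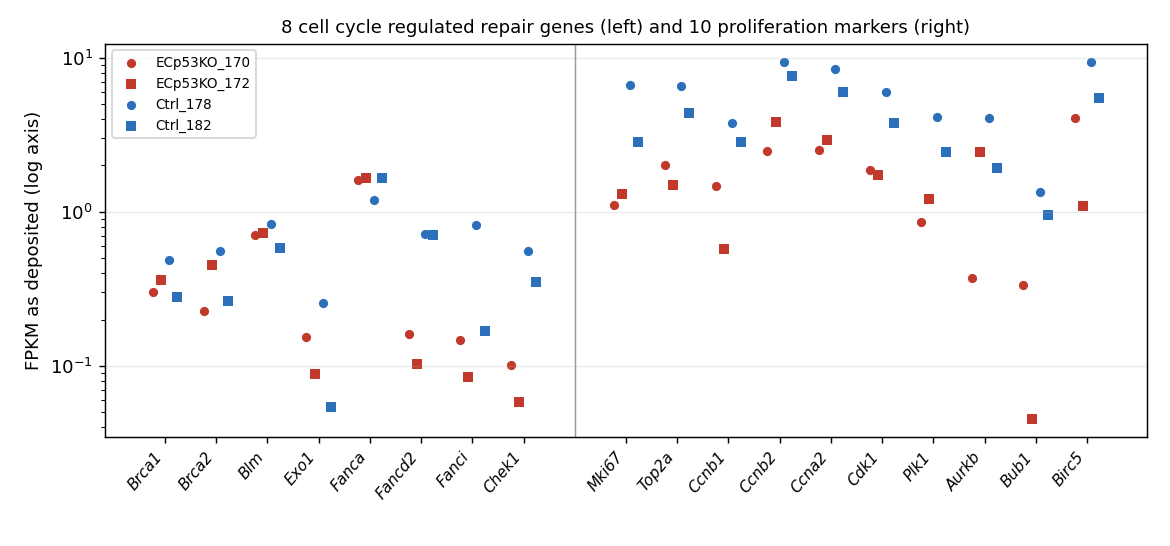
FPKM as deposited, on a log axis, of 8 repair genes that follow the cell cycle (left) and 10 proliferation markers (right) in each library, ECp53KO in red and Ctrl in blue. Red lies under blue for Fancd2, Fanci and Chek1 and for all proliferation markers but Aurkb, while the colours mix for Brca1, Brca2, Blm, Exo1 and Fanca.

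Promoters of Chek1 and Fanci are shown because both genes were lower in both ECp53KO libraries; capitals mark an E2F heptamer, read on the other strand. It begins 44 bases into the transcript in Chek1 and 19 bases into it in Fanci. Of the 6 cell cycle genes with a window, 5 held an E2F heptamer (Blm, Brca1, Brca2, Chek1 and Fanci) and none held a CHR hexamer. Genes with the heptamer thus include both those that were lower and those whose groups overlapped.
Chek1 promoter, chr9:36726609-36726908, minus strand: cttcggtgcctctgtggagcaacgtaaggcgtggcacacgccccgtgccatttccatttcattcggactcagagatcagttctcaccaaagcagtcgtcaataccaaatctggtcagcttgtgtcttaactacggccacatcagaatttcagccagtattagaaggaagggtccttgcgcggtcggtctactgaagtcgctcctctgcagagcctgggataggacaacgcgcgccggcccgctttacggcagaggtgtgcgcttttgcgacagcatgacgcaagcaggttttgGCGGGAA
Fanci promoter, chr7:79392088-79392387, plus strand: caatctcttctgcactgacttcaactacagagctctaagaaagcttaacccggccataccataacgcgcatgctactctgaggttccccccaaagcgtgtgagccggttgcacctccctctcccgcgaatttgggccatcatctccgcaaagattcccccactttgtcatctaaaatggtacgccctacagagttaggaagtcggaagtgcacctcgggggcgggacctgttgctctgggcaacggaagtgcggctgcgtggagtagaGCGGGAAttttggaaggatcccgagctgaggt

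Of the 4 end joining genes tested, 3 were higher and 0 lower in ECp53KO without overlap. Over all tested genes the shares were 19.1% and 16.8%, and none of the 4 passed the test. XRCC5 and XRCC6 are the Ku subunits that cap broken ends and recruit the kinase encoded by Prkdc, and LIG4 with XRCC4 seals the break. Xrcc6 gave 10.1 and 6.47 FPKM in ECp53KO against 5.95 and 6.03 FPKM (log2 fold change 0.38 ± 0.24, SE, 95% interval -0.23 to 0.99). ECp53KO_170 stood apart there, and ECp53KO_172 was close to the controls. Xrcc5 was far lower than its partner in every library, at 0.415 and 0.716 against 0.793 and 0.351 FPKM. Prkdc stood at 1.85 and 2.29 against 1.68 and 1.16 FPKM, higher in both ECp53KO libraries (0.35 ± 0.24, 95% interval -0.27 to 0.97). Xrcc4, the most abundant end joining gene among the 45, was at 13.3 and 11.4 against 10.4 and 9.90 FPKM (0.25 ± 0.16, 95% interval -0.16 to 0.67). Lig4 was at 0.819 and 2.1 against 1.38 and 1.64 FPKM, with the 2 ECp53KO libraries on either side of the controls.

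The other checkpoint kinases overlapped between the groups or were higher in ECp53KO. Atm gave 2.57 and 2.55 FPKM in ECp53KO against 2.40 and 2.63 FPKM, with a log2 fold change of 0.02 (95% interval -0.48 to 0.53). Atr, whose protein acts just upstream of CHEK1, was at 4.05 and 4.38 against 3.74 and 3.04 FPKM, higher in both ECp53KO libraries (0.25 ± 0.20, SE, 95% interval -0.24 to 0.75). Chek2, the most abundant of the 4 checkpoint kinases among the 45, was at 22.7 and 16.8 against 22.3 and 14.7 FPKM, and varied more within each group than between them (0.10 ± 0.26, 95% interval -0.56 to 0.77).

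**Figure D4:**
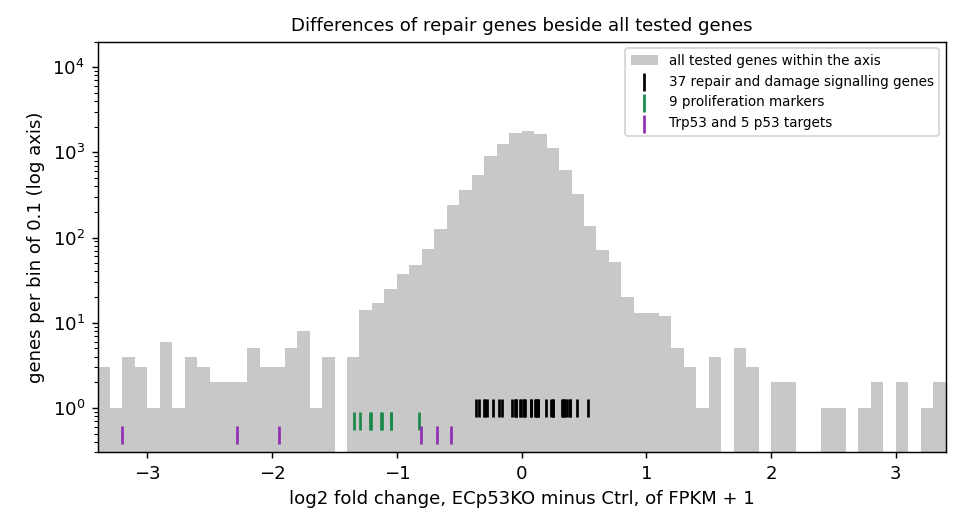
Number of tested genes per 0.1 of log2 fold change, ECp53KO minus Ctrl, on a log axis, with ticks for the 37 repair genes, 9 proliferation markers and Trp53 with 5 p53 targets. The repair genes lie between -0.37 and 0.53, in the middle of all genes, and all ticks of the other lists are negative.

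A wider list of 104 other genes of the same pathways was read in the same way. Of these, 93 were tested, with a median log2 fold change of 0.01, and 0 passed after adjustment (limma). Of the 93, 0 were higher and 4 lower at an unadjusted p under 0.05, against 1.97% and 2.82% of all tested genes. The 4 were Rrm2, the S phase partner of Rrm2b (1.24 and 1.42 against 5.88 and 2.36 FPKM); Rad18, a ubiquitin ligase that calls in translesion polymerases (1.36 and 1.35 against 2.73 and 2.52 FPKM); Ube2t, the ubiquitin-conjugating enzyme of the Fanconi route (1.14 and 1.21 against 3.07 and 1.95 FPKM); and Wee1, a kinase that holds back mitosis (3.54 and 4.22 against 6.09 and 6.10 FPKM). Each had a limma adjusted p of 0.864, and their log2 fold changes were -1.05 ± 0.38, -0.62 ± 0.21, -0.67 ± 0.26 and -0.54 ± 0.18 (SE) in that order. Rrm2 and Rrm2b, which encode alternative subunits of the same enzyme, thus stood on opposite sides of 0, at -1.05 and 0.13 on the log2 scale. Without overlap 19 of the 93 were higher and 19 lower, against 19.1% and 16.8% of all tested genes. Of the 11 genes of the wider list under the filter, 6 were lower without overlap (Aptx, Rad54l, Rad54b, Gen1, Polq and Clspn, named after their values were seen) and 0 higher. The share over all genes under the filter was not counted, so these counts are no result about repair genes. Gen1, a nuclease that cuts recombination junctions, was listed at 0 in both ECp53KO libraries and at 0.523 and 0.322 FPKM in the controls.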

How the data were processed

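RNA libraries were made with a non-stranded TruSeq kit that selects polyadenylated RNA and were read in pairs of 51 bases, per the labels' protocols. Tools named in the submitters' processing notes, with no role, are Cufflinks 2.2.1, TopHat2 2.1.0, Trimmomatic 0.36, FastQC 0.11.5 and bcl2fastq 2.17, and the build is mm10. The authors deposited FPKM values, 1 column per library; which annotation they used is not stated in the labels. A value listed at 0 may be a failed estimate.

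Tests ran on log2(FPKM + 1) over the 11332 genes that averaged 1 FPKM or more, with limma 3.58.1 in R 4.3.3 (intensity trend, two-sided, no covariate, Benjamini-Hochberg adjustment over all of them, threshold 0.05). The fit has 2 residual and 3.15 prior degrees of freedom, and 95% intervals use their sum. This scale understates changes of low genes. With 2 libraries a group, the smallest p of an exact permutation test is 0.333, so none was run. The code was tested on simulated data.

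Depth was estimated from the commonest product of FPKM and length among 1037 genes with 1 GENCODE M21 transcript over 2000 bases and under 0.5 FPKM, taken as 1 fragment. On 2 kb, 1 fragment is worth 0.0222 to 0.0508 FPKM. Fragments of a gene use its longest transcript and are rough. Symbols were matched to RefSeq's GRCm38.p6 table (all 45 by symbol). 1 erythroid marker is not reported here. The members and lists were chosen with earlier results of these data known. Every member is named, and those with an unadjusted p under 0.05, the reported p53 targets, the GADD45 genes and the smallest p and highest level of each pathway in full. Genes of the wider list are named where p is under 0.05 and the groups do not overlap. Nothing in the labels says that libraries are separate mice, so p-values measure only the spread between these libraries. Alternatives were another pseudocount, no filter, 2 rescalings, no small RNA loci, a length correction, robust shrinkage, an Xist covariate and leaving out each library.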

Additional observations from a re-analysis of the deposited data

How the results depend on the processing

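No repair gene passed the adjusted limma test under any of the alternatives run, with all 4 libraries or without 1; at an unadjusted p under 0.05 the counts were 0 lower and 1 higher. The count of 1 higher was 0 after rescaling to TPM, with median ratio scaling, with the length trend removed and with Xist as a covariate, and 0 to 3 without a library. The count of 0 lower was 2 with no filter and 2 with a mean of at least 0.1 FPKM and a pseudocount of 0.1 (Fancd2 and Chek1, which only these fits test), and 0 to 3 without a library. The median log2 fold change of 0.07 was 0.087 with a pseudocount of 0.1, 0.019 with no filter, -0.024 after rescaling to TPM, 0.056 with median ratio scaling, 0.055 with the length trend removed, 0.031 with the lower filter and 0.0070 to 0.12 without a library. Rescaling to TPM shifted the median of all genes by -0.11 and turned the sign of Ddb1, Ercc2, Ercc3, Ogg1, Atm and Chek2; the length correction turned Gadd45a, Ogg1, Parp1 and Pms2. Over all genes, 3 higher became 5 with a pseudocount of 0.1, 1 with no filter, 5 with robust shrinkage and 0 to 21 without a library, and 10 lower became 4 without small RNA loci and 0 to 58 without a library. The log2 fold change of Trp53 was -3.20 without small RNA loci, with robust shrinkage and with Xist as a covariate, where it passed (limma adjusted p = 0.0123, 0.0412 and 0.0208), and -3.95 to -2.79 without a library. Ranges without a library cover the fits over all genes, without small RNA loci and with the lower filter, and assume that the lone library of a group varies like the other group. Over all tested genes the 58 lower came without Ctrl_178 (34 without Ctrl_182, 13 without ECp53KO_170, 12 without ECp53KO_172), and the 21 higher without ECp53KO_172 (18 without ECp53KO_170, 1 without Ctrl_178, 4 without Ctrl_182). The causes of these changes were not tested. No paired analysis was possible because no replicate number occurs in both groups; the covariate Xist sets ECp53KO_170 beside Ctrl_178 and ECp53KO_172 beside Ctrl_182, a match read from the data and not from the labels. The filter at 0.1 FPKM was chosen after seeing the data. At the estimated depth, genes under 1 FPKM rest on 2 to 88 fragments per library, which limits what can be said of them.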

Other observations

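Some repair genes differed more between libraries of a group than between the groups, and in the same order. Parp1 was at 12.2 and 12.3 FPKM in ECp53KO_170 and Ctrl_178 and at 8.83 and 8.78 FPKM in ECp53KO_172 and Ctrl_182. Chek2 was at 22.7 and 22.3 FPKM in the first pair and 16.8 and 14.7 FPKM in the second, and Mgmt at 20.9 and 17.8 FPKM and 15.8 and 10.4 FPKM. The first pair holds the libraries with Xist near 0 (0.0230 and 0.0352 FPKM) and the second those with Xist at 23.1 and 23.9 FPKM. These genes were picked after their values were seen, and the part of sex was not tested.

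The Ku subunits, whose proteins work as a pair, had unlike transcript levels per length. Xrcc6 had a mean of 8.31 FPKM in ECp53KO and 5.99 FPKM in Ctrl, and Xrcc5 of 0.565 and 0.572 FPKM. In the same way Ercc1 (71.3 and 73.6 FPKM) stood far above its partner Ercc4 (3.32 and 4.27 FPKM). Xrcc6 overlaps the annotated gene Desi1 and Ercc1 overlaps Cd3eap, and without strand reads from the overlap cannot be told apart. Xrcc5 rests on an estimated 12 to 22 fragments per library.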
